A study of Mus musculus with 55 samples.

Results

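Tailbuds dissected from E8.0 mouse embryos were profiled by CEL-seq, a method that counts the 3′ ends of polyadenylated transcripts, and the embryos labelled Triple were compared here with those labelled Cdx1-4. The comparison uses 3 libraries of each group, 6 of the 55 samples of the series, and all genes of the deposited count table, of which 6003 of 14602 held enough counts to be tested. A group of 3 WT tailbud libraries shared the fit and gives the level without either mutation. All 9 libraries came from untreated, microdissected tissue of the same stage. The labels give the groups only by these names, so the alleles, the strain, the sex and the number of embryos pooled per library are not stated. Library names in the table carry a colour and a number (green-1, blue-1 and blue-2 in each group), and the values of a group are listed below in that order. The labels do not explain the colours, and 1 Cdx1-4 column is spelled with Cd4 in place of Cdx and was read as Cdx1-4. Nothing in the labels says that the libraries came from separate litters or animals, so p-values measure the spread between libraries.

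The Cdx genes encode caudal-type homeobox factors that are active in the posterior end of the embryo. There they act with Wnt and Fgf signals and with the T-box factor T (Brachyury) to keep the axial progenitors that lay down trunk and tail, and they switch on the central and posterior Hox genes, which give position along the axis. Cells leaving the progenitor zone become presomitic mesoderm, which segments into somites, or neural tissue, while retinoic acid made by the somites opposes the posterior Wnt and Fgf signals.

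Cdx2 set the mutant groups apart, and Cdx1 and Cdx4 were low in both. Cdx2 (GRCm38 chromosome 5, 147300900 to 147307249) measured 176, 173 and 268 CPM (counts scaled to a common library size) in Cdx1-4 and 87.1, 117 and 97.1 CPM in Triple. All 3 Triple libraries lay below all 3 Cdx1-4 libraries, and Cdx2 fell by 1.00 ± 0.19 on the log2 scale (SE; adjusted p = 9.8e-04 by edgeR's quasi-likelihood test with the Benjamini-Hochberg method across the whole table). WT libraries held 269, 174 and 195 CPM, a range that overlaps Cdx1-4 and lies above Triple. Cdx1 measured 59.6, 44.2 and 81.1 CPM in Cdx1-4 and 54.4, 112 and 60.7 CPM in Triple, against 176, 153 and 217 CPM in WT. Cdx1 was lower in Cdx1-4 than in WT (log2 difference -1.60, edgeR adjusted p = 5.1e-06), a comparison in which 0.133% of the tested genes were called. Its level overlapped between the mutant groups (log2 difference 0.33 ± 0.25, edgeR adjusted p = 0.704). Cdx4 was nearly absent from the mutants, with 1 pooled count in Cdx1-4 and 0 in Triple against 68 for WT, so no fold between the mutant groups can be given. About 100 CPM of Cdx2 transcript remained in Triple tailbuds (100 ± 15.3 CPM, SD, n = 3). Because CEL-seq counts 3′ ends and the labels do not give the changed part of the gene, these counts do not show whether the remaining Cdx2, Cdx1 and Cdx4 transcripts are intact.

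Between the mutant groups 121 of the 6003 tested genes were called at an adjusted p below 0.05, which is 2.02% of them. 73 genes, 1.22% of those tested, were higher in Triple and 48, or 0.800%, were lower. These shares are the background for each count of called genes in a list below, and no list was tested as a set. The higher genes had a median log2 difference of 0.86 and the lower genes one of -1.30, while the median over all tested genes was 0.004. In bulk tissue fewer cells of a type and less RNA per cell cannot be told apart. The libraries of the groups did not overlap for 119 of the 121 called genes, against 944 of all tested genes (15.7%). Calls were made from these same libraries, so this count describes them and is no separate support. Library totals were 497589 to 759197 counts in Cdx1-4, 389601 to 596019 in Triple and 395632 to 854852 in WT, so that 3 counts in 1 library stand for 3.66 to 8.17 CPM. 31 of the 73 higher and 22 of the 48 lower genes kept their call whichever of the 6 mutant libraries was left out. The total fell to 78 without Triple green-1 and to 70 without Triple blue-1, to 69 with DESeq2 and to 38 with the blue libraries alone.

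**Figure D1:**
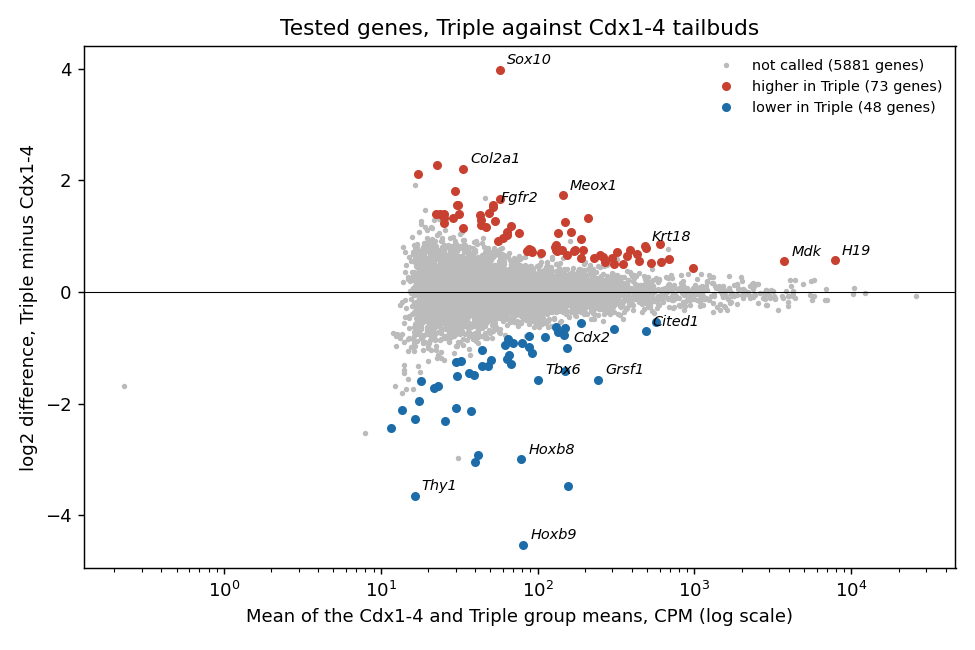
Each point is a tested gene, with the mean of the Cdx1-4 and Triple levels in CPM on a log axis and the log2 difference between Triple and Cdx1-4 on the vertical axis; 1 tested gene at 0 in both groups is not drawn. Sox10 stands at 3.98 above the 73 higher genes (red), and Hoxb9 at -4.52 below the 48 lower genes (blue).

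Some of the called genes carry, in the 250 bases before the transcription start given in the RefSeq promoter table, runs of letters known from Cdx or T-box binding sites, and these sites are shown because the groups differ in Cdx2 and T. The core TTTATG, read on the opposite strand as CATAAA, recurs in Cdx sites and was found in the windows of 5 of the 32 lower genes and 4 of the 48 higher genes that have an entry in that table (GRCm38.p6). The same letters were in 5.35% of the 4583 tested genes with an entry and in 11.1% of all 27025 genes of that table. The T-box half-site TCACACCT, read on the opposite strand as AGGTGTGA, was found in 1 lower gene, Hoxd9, in no higher gene, and in 0.567% of the tested genes. Both strands were searched. A match is a run of letters and not evidence of binding. The calls of 2 of the higher genes shown, Id2 and Cldn2, were lost with DESeq2 (adjusted p = 0.204 and 0.151). With the blue libraries alone their edgeR adjusted p-values were 0.168 and 0.163. Id2 was also lost without Cdx1-4 green-1, Cdx1-4 blue-2, Triple green-1 or Triple blue-2 (0.064 to 0.309). Cldn2 was lost without Cdx1-4 blue-1, Cdx1-4 blue-2 or Triple green-1 (0.0665 to 0.121). The matches of Hoxb8, Hes7, Nepn and Cntfr lie inside the annotated span of their own gene, since the table's start is not the outermost one, and those of the other genes shown lie outside it. The matches are printed 5′ to 3′ on the strand of the gene, 30 bases each, with the motif in capitals.
Hoxb8 (lower, chr11:96281736-96281765, plus strand): atgctaacagctTTTATGcgctgcagcata
Hoxb8 (lower, second match, chr11:96281750-96281779, plus strand): tatgcgctgcagCATAAAcaacaacagact
Hoxd4 (lower, chr2:74721921-74721950, plus strand): agccaaaggttaTTTATGgttctgcagagc
T (lower, chr17:8434233-8434262, plus strand): acctcggctgtaTTTATGgggaggggaccc
Hes7 (lower, chr11:69120218-69120247, plus strand): ttattatacagcTTTATGgtccttaaacca
Nepn (lower, chr10:52391386-52391415, plus strand): agacttgcaagcCATAAAtaacacagggtt
Cntfr (higher, chr4:41696225-41696254, minus strand): gagtcatggaagCATAAAacccgttaactc
Cntfr (higher, second match, chr4:41696140-41696169, minus strand): tgagcgggctgaTTTATGggaactgggggc
Cldn2 (higher, chrX:139800558-139800587, plus strand): gctgtgTTTATGaaggcttccttcctgctg
Id2 (higher, chr12:25096104-25096133, minus strand): agggcgagtgcaCATAAAagacgccccgcc
The full 250 bases before the start are given for Hoxd9, the lower gene with the T-box half-site, and for Fgfr2, a higher gene with the Cdx core.
Hoxd9 (chr2:74697513-74697762, plus strand, T-box half-site in capitals): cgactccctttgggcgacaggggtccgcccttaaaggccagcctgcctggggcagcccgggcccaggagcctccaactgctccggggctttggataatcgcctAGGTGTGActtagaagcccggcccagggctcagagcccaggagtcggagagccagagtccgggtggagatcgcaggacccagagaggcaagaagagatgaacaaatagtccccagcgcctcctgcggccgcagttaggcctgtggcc
Fgfr2 (chr7:130266809-130267058, minus strand, Cdx core in capitals): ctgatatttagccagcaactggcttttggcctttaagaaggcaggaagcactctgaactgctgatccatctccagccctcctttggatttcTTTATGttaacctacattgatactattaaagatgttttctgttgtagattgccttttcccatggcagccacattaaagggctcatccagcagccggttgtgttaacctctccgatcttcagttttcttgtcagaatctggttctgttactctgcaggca

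Central Hox genes were low in Triple tailbuds. Of 8 tested genes of paralog groups 5 to 9, 6 fell and none rose, with a median log2 difference of -2.61 over the 8. Their summed level was 551 to 673 CPM in the Cdx1-4 libraries, 604 to 909 CPM in WT and 68.4 to 156 CPM in Triple. Hoxb9, at chromosome 11, 96271330 to 96276595, was the gene with the largest difference of the comparison, at 129, 198 and 141 CPM in Cdx1-4 and 2.72, 2.44 and 12.1 CPM in Triple. WT held 166, 198 and 275 CPM of it, and the log2 difference between the mutant groups was -4.52 ± 0.37 (edgeR adjusted p = 1.4e-10). Its neighbour Hoxb8 measured 145, 149 and 129 CPM in Cdx1-4 and 16.3, 9.77 and 24.3 CPM in Triple (log2 difference -2.99 ± 0.28, edgeR adjusted p = 1.5e-10). The mutant groups were far apart for both genes, and no WT library came near the Triple level, with 126, 166 and 232 CPM of Hoxb8. Hoxa5 fell from 77.3, 51.1 and 97.7 CPM to 2.72, 0 and 20.8 CPM, a log2 difference of -2.92 ± 0.46 (edgeR adjusted p = 4.9e-04). Hoxd9 fell from 42, 56.7 and 31.2 CPM to 2.72, 4.88 and 15.6 CPM (-2.31 ± 0.41, edgeR adjusted p = 2.6e-04). Hoxb7 and Hoxc5 fell with log2 differences of -2.11 and -1.69. Among the 6 Hox genes of these groups that fell, Triple blue-2 held the highest level of the 3 Triple libraries for 5. Over all 48 lower genes it did so for 26. Among the 73 higher genes Triple blue-2 held the lowest level of the 3 for 36. Its Pearson correlation over 5601 genes was 0.954 with Triple green-1 and 0.958 with Triple blue-1. With Cdx1-4 green-1, blue-1 and blue-2 the correlations were 0.955, 0.963 and 0.951. Triple blue-2 also had the largest total of the Triple libraries (596019 counts), and the part of depth in this was not tested.

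The remaining tested members of these paralog groups were Hoxc8 and Hoxb5. Hoxc8 held 37, 66 and 14 counts in Cdx1-4 and 0, 0 and 10 counts in Triple, with no overlap but a spread that left it short of a call (log2 difference -2.98 ± 0.80, edgeR adjusted p = 0.161). Hoxb5 measured 31.4 ± 10.8 CPM in Cdx1-4 and 37.9 ± 9.63 CPM in Triple (SD, n = 3; log2 difference 0.30 ± 0.30, edgeR adjusted p = 0.794), and its libraries overlapped. The calls of Hoxb7 (edgeR adjusted p = 0.0171) and Hoxc5 (0.00915) were lost without Cdx1-4 green-1 (0.11 and 0.114) or Triple green-1 (0.111 and 0.064). That of Hoxb7 was also lost without Cdx1-4 blue-1 (0.0576), and that of Hoxc5 without Triple blue-1 (0.0987). With the blue libraries alone Hoxa5 had an edgeR adjusted p of 0.0739.

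Hox genes too scarce to test held few counts in Triple as well. Hoxc9 held 23 counts over the 3 Cdx1-4 libraries and 0 over the 3 Triple libraries, which makes it at least 5.34-fold lower against a floor of 3 counts over the group. Hoxc6 held 11 and 0 counts (at least 2.56-fold lower). Hoxa9 held 13 and 2 counts, a Cdx1-4 to Triple ratio of 4.53 with an exact 95% interval of 1.03 to 41.4 that covers counting error only. Hoxa7, with 14 and 3 counts, gave a ratio of 3.25 whose interval of 0.908 to 17.7 includes equality, and so did the 14 and 6 counts of Hoxb6 (0.587 to 5.16). The 7 genes of paralog groups 10 to 13 in the table gave pooled totals of 14 (WT), 16 (Cdx1-4) and 1 (Triple), near the detection limit in every group.

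Among the 10 tested Hox genes of paralog groups 1 to 4, the median log2 difference was -0.62. Hoxd4 fell from 78.6, 95.4 and 41.6 CPM to 8.17, 2.44 and 13.9 CPM (-3.04 ± 0.51, edgeR adjusted p = 0.00239). Hoxb1 measured 362 ± 38.2 CPM in Cdx1-4 and 382 ± 55.4 CPM in Triple (SD, n = 3), differing by 0.07 ± 0.13 on the log2 scale (edgeR adjusted p = 0.93).

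**Figure D2:**
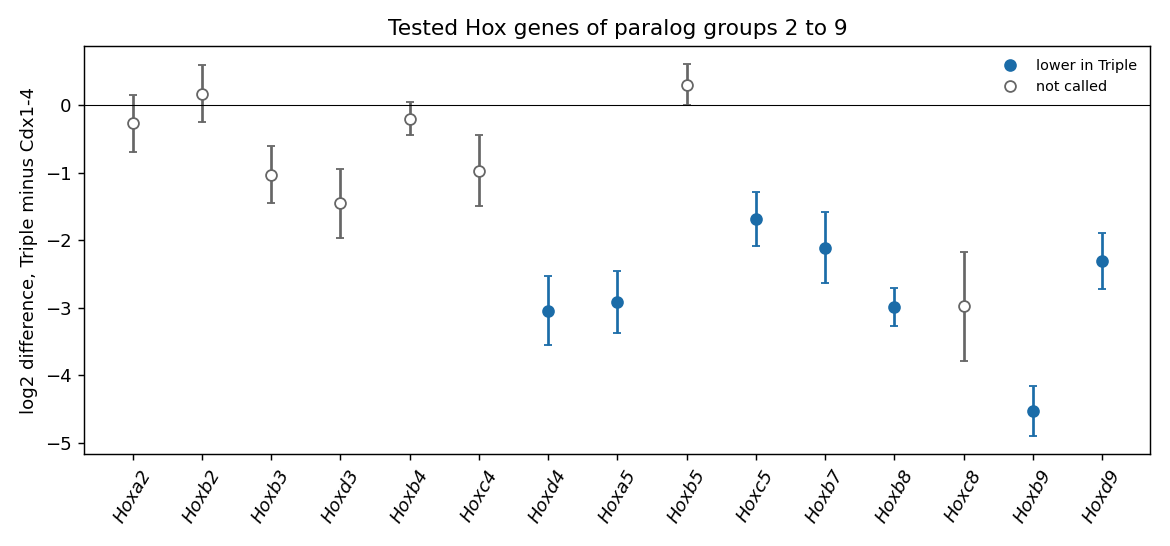
Log2 difference between Triple and Cdx1-4 with its standard error for the tested Hox genes of paralog groups 2 to 9, in that order. Filled points passed the test: Hoxd4 and 6 genes of groups 5 to 9 lie below -1.5.

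Along the HoxB cluster the calls lay at the posterior end. Hoxb9, Hoxb8 and Hoxb7, which are neighbours, fell, while the tested genes beyond them in the cluster, Hoxb5, Hoxb4, Hoxb3, Hoxb2 and Hoxb1, had log2 differences from -1.03 to 0.30 and none was called. In the HoxA cluster, Hoxa5 and 4 further genes within 500 kb of each other fell, among them Evx1, the homeobox gene at the posterior end of the cluster. The others of that run, noted after their values were seen, were the noncoding transcripts 2700086A05Rik, Mira and 5730457N03Rik. The first of these held 272, 312 and 287 CPM in Cdx1-4 and 2.72, 2.44 and 59 CPM in Triple (log2 difference -3.47 ± 0.60, edgeR adjusted p = 0.0425), with Triple blue-2 again the highest. Leaving out any of Cdx1-4 green-1, blue-1 or blue-2 or Triple green-1 or blue-1 raised that p to between 0.0615 and 0.135. Mira was lost without Triple blue-1 (edgeR adjusted p = 0.0657 against 0.004), and 5730457N03Rik without Cdx1-4 blue-1, Triple blue-1 or Triple blue-2 (0.125, 0.0778 and 0.127 against 0.0171). Counting is not stated to use strand, so reads of overlapping antisense transcripts and Hox genes may be shared.

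Genes of the primitive streak and axial progenitors were lower in part. Of 8 tested genes of this list 3 fell (Grsf1, Evx1 and T) and none rose, with a median log2 difference of -0.37 and a summed level of 2120 to 2380 CPM in Cdx1-4, 2230 to 2530 CPM in WT and 1530 to 1670 CPM in Triple. Grsf1, an RNA-binding protein that is strongly expressed in the posterior embryo, measured 355, 322 and 416 CPM in Cdx1-4 and 112, 125 and 128 CPM in Triple (-1.57 ± 0.15, edgeR adjusted p = 1.8e-10). WT held 357, 274 and 341 CPM, so that Triple stood alone at the low level. T (chromosome 17, 8434423 to 8442496), which specifies mesoderm and is needed for axial elongation, measured 174, 180 and 204 CPM in Cdx1-4, 98, 115 and 111 CPM in Triple and 210, 208 and 164 CPM in WT. It fell by 0.77 ± 0.17 on the log2 scale (edgeR adjusted p = 0.00428), a smaller estimate than that of Grsf1. With the blue libraries alone the adjusted p of T was 0.099. Evx1 fell from 133, 134 and 110 CPM to 49, 56.2 and 69.4 CPM (-1.09 ± 0.21, edgeR adjusted p = 7.0e-04), and to an adjusted p of 0.0892 with the blue libraries alone. The 5 other tested members ranged from -0.51 for Sp5 to 1.08 for Mesp1, whose adjusted p was 0.0503.

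**Figure D3:**
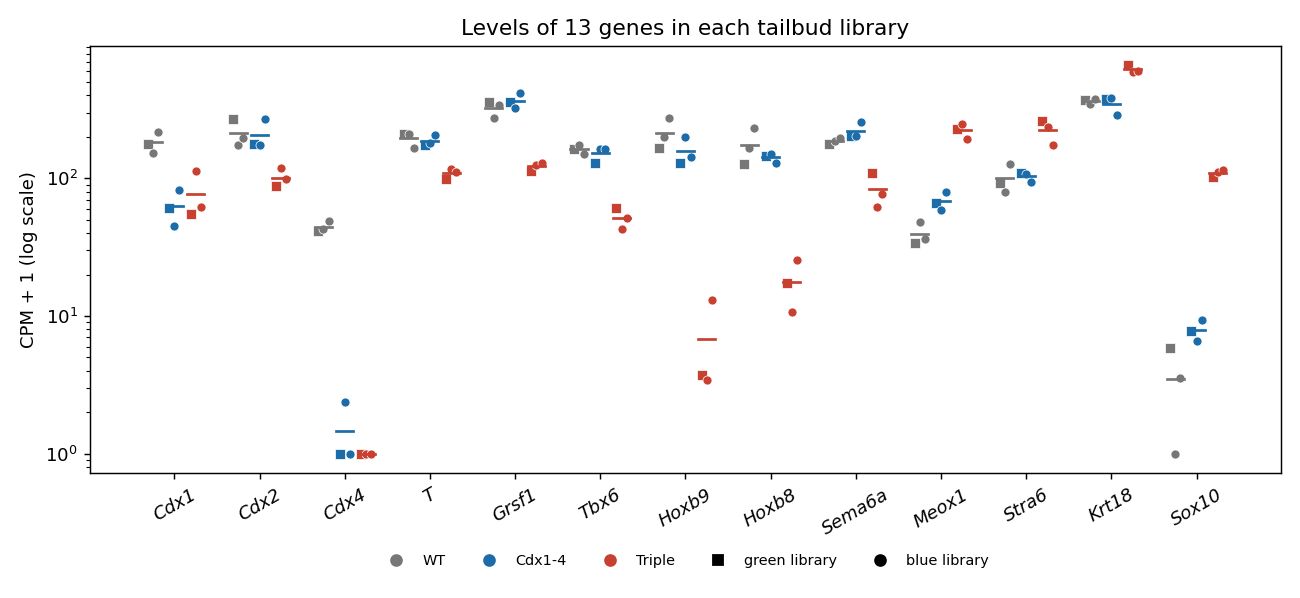
Levels of 13 genes in the WT (grey), Cdx1-4 (blue) and Triple (red) libraries, as CPM plus 1 on a log axis; squares are green and circles blue libraries, and bars are group means. Triple stands apart from the other groups for Cdx2, T, Grsf1, Tbx6, Hoxb9, Hoxb8, Sema6a, Meox1, Stra6, Krt18 and Sox10. Cdx1 overlaps between the mutant groups.

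Several presomitic genes fell, and some genes of formed somites rose. Of 10 tested genes of the presomitic mesoderm and its segmentation clock 4 fell (Tbx6, Hes7, Dll3 and Cited1) and 1 rose (Pcdh8), and the summed level was 1280 to 1510 CPM in Cdx1-4 and 982 to 1020 CPM in Triple. Tbx6, the T-box factor that commits cells to the paraxial mesoderm, measured 129, 162 and 162 CPM in Cdx1-4, 59.9, 41.5 and 50.3 CPM in Triple and 161, 174 and 149 CPM in WT (-1.57 ± 0.20, edgeR adjusted p = 5.5e-07). Hes7, the oscillating repressor of the clock, fell from 65.1, 49.8 and 60.3 CPM to 24.5, 14.7 and 22.5 CPM (-1.48 ± 0.29, edgeR adjusted p = 0.00111). Both genes kept the mutant groups apart in every library. Dll3, a Notch ligand of the clock, fell by 1.12 ± 0.23 and the transcriptional co-regulator Cited1 by 0.70 ± 0.12 on the log2 scale (edgeR adjusted p = 0.00154 and 1.8e-04). Hes7 and Dll3 had adjusted p-values of 0.0509 and 0.0791 with the blue libraries alone.

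Of 5 tested genes of formed somites 2 rose (Meox1 and Tcf15), and all 5 log2 differences were above 0, with a median of 0.78 and a summed level of 279 to 304 CPM in Cdx1-4, 210 to 253 CPM in WT and 493 to 559 CPM in Triple. Meox1, a homeobox gene of the somites, measured 65.1, 58.1 and 79 CPM in Cdx1-4, 226, 249 and 192 CPM in Triple and 33, 47.5 and 35.4 CPM in WT. The 3 groups did not overlap, and Meox1 rose by 1.73 ± 0.18 (edgeR adjusted p = 1.2e-09). Between Cdx1-4 and WT its log2 difference was 0.83 (adjusted p = 0.267). Tcf15 (Paraxis), which keeps somites epithelial, rose from 8.13, 12.4 and 20.8 CPM to 54.4, 31.7 and 50.3 CPM (1.80 ± 0.36, edgeR adjusted p = 0.00119). After thinning all libraries to the smallest total its adjusted p was 0.0607, and with the blue libraries alone 0.164. The protocadherin Pcdh8, which is expressed where somites form, rose with a log2 difference of 1.32 ± 0.36 (edgeR adjusted p = 0.0351), and lost the call whichever of the 6 libraries was left out (0.064 to 0.242).

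Single members of the Wnt pathway moved in either direction. Of 6 tested Wnt ligands and R-spondins, Wnt5b and Rspo3 fell and Wnt6 rose. Wnt5b, a ligand of the streak and posterior mesoderm, fell from 46.1, 65 and 35.4 CPM to 8.17, 9.77 and 15.6 CPM, against 35.4, 65.9 and 73.3 CPM in WT (-2.07 ± 0.38, edgeR adjusted p = 4.2e-04). Rspo3, a secreted protein that strengthens Wnt signals at the receptor, fell from 51.5, 45.6 and 39.5 CPM to 19.1, 7.33 and 20.8 CPM (edgeR adjusted p = 0.00546), and Wnt6, a ligand of surface ectoderm, rose by 0.96 ± 0.24 (0.0137). Wnt3a, the ligand most closely tied to tailbud growth, had a log2 difference of -0.23 (edgeR adjusted p = 0.935), and Wnt5a one of -0.97 (0.161). Among the 7 tested receptors Fzd2 rose by 0.67 ± 0.14 (edgeR adjusted p = 0.00303) and Fzd10 fell by 0.85 ± 0.23 (0.0356). Of 5 secreted antagonists Sfrp1 rose, from 145, 105 and 135 CPM to 294, 239 and 217 CPM, with WT at 106, 116 and 111 CPM (0.95 ± 0.16, edgeR adjusted p = 1.3e-04). Among 10 feedback genes and Tcf/Lef factors Lef1 fell, at 227 ± 22.6 CPM in Cdx1-4 and 154 ± 19.9 CPM in Triple (SD, n = 3; edgeR adjusted p = 0.0464). Without Triple blue-1 the adjusted p-values of Rspo3, Wnt6, Fzd2, Fzd10 and Lef1 were 0.107, 0.0657, 0.0597, 0.324 and 0.317. Wnt6 was also lost without Cdx1-4 green-1 (0.162) or Triple green-1 (0.0722), Fzd10 without Cdx1-4 blue-1 (0.135), Cdx1-4 blue-2 (0.129) or Triple green-1 (0.0916), and Lef1 without Cdx1-4 green-1 (0.257), Cdx1-4 blue-1 (0.0834), Triple green-1 (0.11) or Triple blue-2 (0.0525).

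No Fgf ligand passed the test, while the receptor Fgfr2 rose. Of 3 tested ligands, Fgf8, the main ligand of the tailbud, measured 52.9, 73.3 and 49.9 CPM in Cdx1-4, 40.8, 34.2 and 27.7 CPM in Triple and 78.2, 84.4 and 63.2 CPM in WT. Its mutant libraries did not overlap, but the log2 difference of -0.83 ± 0.26 was not called (edgeR adjusted p = 0.101). Fgf4 and Fgf15 had log2 differences of -0.56 and 0.13. Fgfr2 rose from 29.8, 24.9 and 27 CPM to 54.4, 92.8 and 85 CPM, with WT at 13.4, 15.8 and 25.3 CPM (1.52 ± 0.26, edgeR adjusted p = 1.6e-04). Il17rd (Sef), a feedback inhibitor of Fgf signalling, fell from 67.8, 69.1 and 74.9 CPM to 19.1, 19.5 and 39.9 CPM (-1.33 ± 0.27, edgeR adjusted p = 0.00154, and 0.0791 with the blue libraries alone). These were the calls among 9 tested receptors and feedback genes. Dusp4, another feedback gene, stood at 32.2 ± 9.58 CPM in Cdx1-4 and 16 ± 3.71 CPM in Triple (SD, n = 3; edgeR adjusted p = 0.124).

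Genes of retinol uptake and of retinoic acid transport and synthesis rose. The pathway had 10 tested genes with a median log2 difference of 0.18, and Stra6, Crabp2 and Aldh1a2 rose while Rarg fell. Stra6, the cell-surface receptor that takes up retinol, measured 108, 106 and 93.6 CPM in Cdx1-4, 259, 234 and 175 CPM in Triple and 91.6, 79.1 and 126 CPM in WT (1.08 ± 0.18, edgeR adjusted p = 6.8e-05). Retinoic acid synthesis in mesoderm depends on the dehydrogenase Aldh1a2, which measured 492, 281 and 516 CPM in Cdx1-4, 882, 852 and 609 CPM in Triple and 310, 290 and 316 CPM in WT. It rose by 0.86 ± 0.19 (edgeR adjusted p = 0.0293), with its highest Cdx1-4 library below its lowest Triple library. Crabp2, which carries retinoic acid inside the cell, rose from 140, 163 and 125 CPM to 261, 247 and 224 CPM (0.75 ± 0.16, edgeR adjusted p = 0.00239, and 0.13 with the blue libraries alone). The receptor Rarg fell by 0.92 ± 0.24, with 114, 63.6 and 93.6 CPM in Cdx1-4 and 43.5, 68.4 and 34.7 CPM in Triple, so its groups overlapped. The enzyme Cyp26a1, which breaks retinoic acid down in the tailbud, was too scarce to test. Aldh1a2 lost its call without Triple green-1 or Triple blue-1 (edgeR adjusted p = 0.123 and 0.148) and in a fit of the mutant groups alone (0.216). Rarg lost it without Cdx1-4 green-1 (0.32), Cdx1-4 blue-2 (0.0765), Triple green-1 (0.119) or Triple blue-2 (0.29).

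Sox10, a transcription factor of the neural crest and its glia, showed the largest rise of the comparison. It measured 6.78, 5.53 and 8.32 CPM in Cdx1-4 and 101, 110 and 114 CPM in Triple, with 4.88, 0 and 2.53 CPM in WT. The Triple libraries spread by an SD of 7 CPM, and the log2 difference was 3.98 ± 0.32 (edgeR adjusted p = 7.4e-13). The call held under all 16 alternative settings, with a highest adjusted p of 2.9e-07. Of the 3 other tested neural crest genes, Sox9 differed by 0.50 ± 0.41 (edgeR adjusted p = 0.726), Ngfr by 0.21 ± 0.21 (0.778) and Lmo4 by 0.18. 15 of the 19 listed crest genes were in the table and 11 of them were too scarce to test; Tfap2b was at 0 in all 6 libraries, and Foxd3 and Erbb3 are among those the table does not list. Snai2 held 11 pooled counts in Cdx1-4 and 29 in Triple, and Tfap2a 21 in each. These are raw counts, not scaled for the larger pooled total of Cdx1-4, so equal counts do not mean equal levels. The summed level of the crest list was 233 to 246 CPM in Cdx1-4 and 337 to 421 CPM in Triple, of which Sox10 itself holds 6.88 ± 1.4 CPM in Cdx1-4 and 108 ± 7 CPM in Triple (SD, n = 3).

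On chromosome 15 Sox10 (79154913 to 79164490) lies close to Card10 and Cdc42ep1, which also rose. Cdc42ep1, an effector of the small GTPase Cdc42, measured 35.2, 51.1 and 39.5 CPM in Cdx1-4 and 73.5, 97.7 and 85 CPM in Triple (1.02 ± 0.23, edgeR adjusted p = 0.00584). Card10 measured 29.1 ± 6.65 CPM in Cdx1-4 and 64.1 ± 4.25 CPM in Triple (SD, n = 3; log2 difference 1.17 ± 0.27, edgeR adjusted p = 0.00725). Of the 12 tested genes from Card10 to Sox10 these 3 were called. Polr2f, whose start is 13.6 kb from that of Sox10, held 323 ± 16.9 and 293 ± 18.5 CPM (SD, n = 3; log2 difference -0.14 ± 0.13, edgeR adjusted p = 0.755). None of the 10 tested genes on the far side of Sox10 was called, and their log2 differences ran from -0.35 to 0.57. Card10 and Cdc42ep1 were named after their values were seen. Both were lost without Triple blue-1 (edgeR adjusted p = 0.0564 and 0.0778), Card10 without Cdx1-4 blue-1 (0.0807) and Cdc42ep1 without Cdx1-4 green-1 (0.0761).

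Neural genes gave 1 call in each direction. Of 6 tested neural progenitor genes Sox3 rose and Sox2 fell. Sox2, which marks neural progenitors and the neuromesodermal cells of the tailbud, measured 174, 155 and 177 CPM in Cdx1-4, 81.7, 105 and 114 CPM in Triple and 136, 73.8 and 139 CPM in WT. The fall against Cdx1-4 was 0.72 ± 0.19 on the log2 scale (edgeR adjusted p = 0.0257), while the WT libraries overlapped Triple. Sox3, a close relative, measured 94.9, 66.3 and 125 CPM in Cdx1-4 and 155, 200 and 149 CPM in Triple (0.85 ± 0.19, edgeR adjusted p = 0.0063). Of 4 tested neuron genes Ncam1, a cell adhesion molecule, fell from 63.7, 51.1 and 64.5 CPM to 24.5, 31.7 and 29.5 CPM (-1.04 ± 0.27, edgeR adjusted p = 0.0217). Without Cdx1-4 green-1 the adjusted p was 0.116 for Sox2 and 0.113 for Ncam1, and without Triple green-1 0.171 and 0.107. Sox2 was also lost without Cdx1-4 blue-2 (0.0836) or Triple blue-1 (0.0929), and Ncam1 without Cdx1-4 blue-2 (0.0741), Triple blue-1 (0.0615) or Triple blue-2 (0.0875). Sox3 was lost without Cdx1-4 blue-1 or Triple blue-1 (0.111 each).

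Simple epithelium and endoderm genes rose in part. Of 14 tested genes of this list 4 rose (Krt8, Krt18, Sox17 and Gata6) and none fell, where 1.22% of all tested genes rose and 0.800% fell. The summed level was 1690 to 1980 CPM in Cdx1-4, 1740 to 2030 CPM in WT and 2520 to 2640 CPM in Triple. Krt18 measured 373, 383 and 287 CPM in Cdx1-4 and 661, 596 and 597 CPM in Triple (0.82 ± 0.12, edgeR adjusted p = 1.6e-05). Its partner Krt8, with which it forms the keratin filaments of simple epithelia, measured 399, 350 and 335 CPM and 474, 686 and 713 CPM (0.79 ± 0.13, edgeR adjusted p = 7.5e-05). The libraries of the mutant groups did not overlap for either keratin, and WT lay with Cdx1-4 at 368, 343 and 379 CPM of Krt18 and 370, 438 and 394 CPM of Krt8. Sox17, an endoderm factor, rose by 0.60 ± 0.16 (edgeR adjusted p = 0.0268), and Gata6, which acts in endoderm and lateral mesoderm, by 1.15 ± 0.31 (0.0376). Epcam, Cdh1, Cldn6 and Krt19, also epithelial genes of the list, had log2 differences of -0.47, 0.07, 0.18 and -0.11. Sox17 was lost without Cdx1-4 green-1, Cdx1-4 blue-1, Triple blue-1 or Triple blue-2 (adjusted p = 0.085, 0.189, 0.151 and 0.11). Gata6 was lost without any library but Cdx1-4 blue-1 (0.0846 to 0.194).

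Genes of tissues that border the tailbud were measured beside these results, and their part in them was not tested. None of the 11 tested genes of visceral endoderm and yolk sac was called, but 10 of the 11 log2 differences were above 0, with a median of 0.38 and summed levels of 686 to 1630 CPM in Cdx1-4, 925 to 1520 CPM in WT and 1420 to 1780 CPM in Triple. Of these Cubn, an uptake receptor of the visceral endoderm, ranged from 45.8 to 153 CPM in Cdx1-4 and from 133 to 286 CPM in Triple. The trophoblast and decidua list had 3 tested members and no call. Its gene Prl8a2, made by the decidua, measured 13.6, 0 and 6.24 CPM in Cdx1-4, 24.5, 31.7 and 22.5 CPM in Triple and at most 1.22 CPM in WT (edgeR adjusted p = 0.0639). Blood and endothelial genes summed to 107 to 445 CPM in Cdx1-4 and 144 to 189 CPM in Triple. The embryonic globin Hba-x held 128 of its 135 Cdx1-4 counts in blue-1. The cardiac, lateral plate and allantois list had 1 call among 6 tested genes: Tbx4, which acts in the allantois and hindlimb field, fell from 24.4, 22.1 and 14.6 CPM to 0, 0 and 8.67 CPM (-2.44 ± 0.64, edgeR adjusted p = 0.0268). It was lost without Cdx1-4 blue-1 (0.0715), Triple green-1 (0.125) or Triple blue-1 (0.191).

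**Figure D4:**
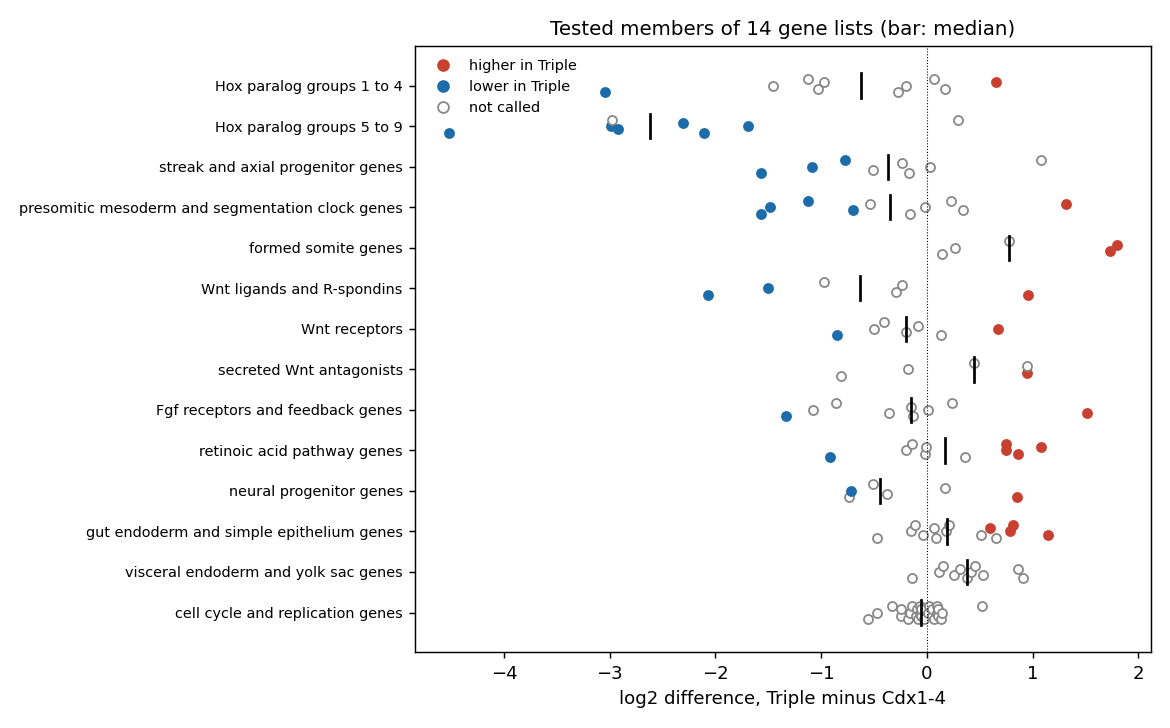
Log2 differences between Triple and Cdx1-4 of the tested members of 14 gene lists, 1 point per gene, with a bar at each list's median; filled points passed the test. Hox groups 5 to 9 lie farthest to the left with a median of -2.61, formed somite genes to the right with 0.78, and cell cycle genes around 0 with -0.05.

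Sema6a fell among the guidance genes. Of 15 tested semaphorin, plexin, ephrin, Slit and netrin genes it was the one call. Sema6a, a transmembrane semaphorin, measured 201, 202 and 254 CPM in Cdx1-4, 109, 61 and 76.3 CPM in Triple and 177, 185 and 197 CPM in WT (-1.42 ± 0.18, edgeR adjusted p = 4.7e-07). Nrp1 and Plxna1, receptors that bind semaphorins, had log2 differences of 0.78 and 0.05, and neither was called. Among 24 tested matrix and integrin genes Col2a1, the collagen of cartilage and notochord sheath, was the one call: it rose from 12.2, 13.8 and 8.32 CPM to 46.3, 68.4 and 52 CPM, with WT at 1.22, 7.91 and 5.05 CPM (2.21 ± 0.35, edgeR adjusted p = 3.6e-05). Col2a1 was also the single tested gene of the node and notochord list, whose other 10 genes in the table were too scarce. Of these Shh held 15 counts in Cdx1-4 and 11 in Triple, and Noto 5 and 1, as raw counts not scaled for the larger pooled total of Cdx1-4. The basement membrane collagen Col4a2 stood just outside the threshold at an adjusted p of 0.0504.

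Further genes with large differences belonged to none of the lists described so far. Thy1, a surface glycoprotein, held 59 counts in Cdx1-4 and 3 in Triple, a ratio of 13.7 with an exact 95% interval of 4.47 to 68.37 (edgeR adjusted p = 6.8e-05). Nepn (nephrocan), a secreted leucine-rich repeat protein, fell from 42, 80.2 and 64.5 CPM to 8.17, 7.33 and 22.5 CPM (-2.13 ± 0.35, edgeR adjusted p = 9.9e-05). Cntfr, the receptor of ciliary neurotrophic factor, rose from 24.4, 23.5 and 31.2 CPM to 92.5, 68.4 and 71.1 CPM (1.56 ± 0.27, edgeR adjusted p = 1.5e-04). The carbonic anhydrase relative Car11 rose from 9.49, 5.53 and 8.32 CPM to 35.4, 36.6 and 41.6 CPM (2.28 ± 0.41, edgeR adjusted p = 3.0e-04). Each of these 4 genes kept its call under all the alternatives that gave it a value. Soga3 rose by 1.67 ± 0.25 and the homeobox gene Prrx2, of mesenchyme, by 1.42 ± 0.30 (edgeR adjusted p = 1.4e-05 and 0.00277). Soga3 measured 24.4, 24.9 and 33.3 CPM in Cdx1-4 and 92.5, 90.3 and 78 CPM in Triple. With the blue libraries alone the adjusted p of Prrx2 was 0.149.

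Abundant transcripts also differed; Mdk, Pmp22 and Flrt3 are given here because of their values, after these were seen. Mdk (midkine), a heparin-binding growth factor, measured 3400, 3170 and 2550 CPM in Cdx1-4 and 4500, 4810 and 4070 CPM in Triple (0.55 ± 0.10, edgeR adjusted p = 4.1e-04). The imprinted noncoding RNA H19 rose from 7020, 7270 and 4640 CPM to 8790, 10200 and 9210 CPM (0.57 ± 0.12, edgeR adjusted p = 0.0063), and was 1 of 2 calls among 14 tested imprinted genes. The other, Nnat, rose by 0.50 ± 0.14 (edgeR adjusted p = 0.0471), but its groups overlapped, at 332 CPM in Cdx1-4 blue-1 and 329 CPM in Triple blue-2. Nnat lost its call without Cdx1-4 green-1, Cdx1-4 blue-2, Triple green-1 or Triple blue-1 (0.175 to 0.376), and with the blue libraries alone (0.617). Pmp22, a myelin and epithelial membrane protein, rose from 103, 84.3 and 74.9 CPM to 229, 212 and 198 CPM (1.26 ± 0.17, edgeR adjusted p = 1.4e-06). Flrt3, an adhesion protein that interacts with Fgf receptors, rose from 75.9, 117 and 175 CPM to 280, 300 and 307 CPM (1.32 ± 0.19, edgeR adjusted p = 2.4e-05). WT libraries held 98.9, 124 and 83.4 CPM of Flrt3, within the range of Cdx1-4.

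Growth and stress genes gave few calls. None of 28 tested cell cycle and replication genes was called by edgeR, and the smallest adjusted p was 0.476 for Top2a, at 545 ± 14.7 CPM in Cdx1-4 and 463 ± 32.9 CPM in Triple (SD, n = 3). Their summed level was 8410 to 8640 CPM in Cdx1-4 and 8040 to 8400 CPM in Triple. The 9 tested p53 target and apoptosis genes had a median log2 difference of -0.15, with 3 of the 9 above 0, and 1 call. Cdkn1a, the inhibitor that arrests the cell cycle, rose from 75.9, 116 and 99.8 CPM to 139, 193 and 160 CPM (0.76 ± 0.19, edgeR adjusted p = 0.0171). It was lost without Cdx1-4 green-1 (0.211) or Triple blue-1 (0.196). Pmaip1 lay the other way at -1.80 ± 0.56, without overlap of the mutant libraries, and was not called (edgeR adjusted p = 0.0884). Of 19 hypoxia and glycolysis genes the aldolase Aldoc was called, and it rose from 90.8, 82.9 and 87.3 CPM to 218, 173 and 160 CPM (1.06 ± 0.18, edgeR adjusted p = 1.1e-04). The 8 tested immediate early and heat shock genes, the 7 epiblast genes and the 3 Ifitm genes held no call. The Y-linked Ddx3y measured 44.7, 29 and 20.8 CPM in Cdx1-4 and 27.2, 22 and 81.5 CPM in Triple, an uneven level whose part in the calls was not tested.

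Called genes lay on every chromosome except 16 and Y, with 2 to 14 on each. On chromosome 5, which holds Cdx2, 5 of 392 tested genes were called, or 1.28% against 2.02% of all tested genes. All 5 were lower in Triple: Cdx2 itself, Grsf1, Fzd10, Naaa and Tmem132c. Naaa (edgeR adjusted p = 0.00749) was lost without Cdx1-4 blue-1, Triple green-1 or Triple blue-1 (0.0513 to 0.0729) and with DESeq2 (0.0825). Tmem132c (edgeR adjusted p = 0.0155) was lost without Cdx1-4 green-1, Cdx1-4 blue-2, Triple green-1 or Triple blue-1 (0.0547 to 0.192) and with DESeq2 (0.0848). With the blue libraries alone the adjusted p was 0.161 for Naaa and 0.34 for Tmem132c. Of the 10 genes nearest to Cdx2, 5 on each side, 6 were tested and none was called. Pan3 measured 40.1 CPM in Cdx1-4 and 40.9 CPM in Triple, and Polr1d 558 and 503 CPM. The 6 log2 differences lay between -0.30 and 0.67, and the genes directly beside Cdx2 were too scarce to test.

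The genes called in tailbuds were then read out in epiblast stem cells (EpiSCs), pluripotent cells of the post-implantation epiblast, in libraries that the tailbud comparison did not use. WT EpiSCs were sampled before and after 24h with Chiron, a GSK3 inhibitor that activates Wnt signalling, and Fgf8, and cells labelled Null were sampled in the same way, with 2 libraries per group. The labels do not give the genotype of the Null cells, and the text on their culture mentions cells null for Wnt3. Of the 48 genes lower in Triple 40 were tested in EpiSCs, and 21 of them (52.5%) rose in WT cells over 24h, where 8.19% of all 9703 tested genes rose and 8.63% fell. The set that rose holds T, Tbx6, Evx1, Grsf1, Cdx2, Wnt5b, Rspo3, Lef1, Fzd10, Hes7, Dll3, Cited1, Hoxb8, Hoxb9 and Hoxd9, and 4 of the 40 fell (10%), among them Sox2 and Rarg. Of the 73 genes higher in Triple 68 were tested, and 15 rose (22.1%) while 21 fell (30.9%). Among tailbud genes that were not called, 9.07% rose and 7.6% fell. Without WT 24h replicate 1 the 21 genes that fell became 13.

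T rose in WT EpiSCs from 51.4 and 54.1 CPM to 523 and 413 CPM (log2 difference 3.16 ± 0.15, edgeR adjusted p = 9.8e-18), and Tbx6 from 2.68 and 1.14 CPM to 144 and 99.5 CPM (5.96 ± 0.33, 7.0e-16). Grsf1 rose from 79.7 and 71.2 CPM to 344 and 290 CPM. Meox1, higher in Triple tailbuds, fell from 16.1 and 8.54 CPM to 2.78 and 1.91 CPM (-2.30 ± 0.51, edgeR adjusted p = 0.00126). Aldh1a2, also higher in Triple, rose from 5.35 and 3.42 CPM to 149 and 99.5 CPM, so genes of this set did not all move one way.

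Between Null and WT EpiSCs at 24h, 11 of the 40 genes lower in Triple were lower in Null (27.5%) and 1, Tgif1, was higher, against 4.35% lower and 3.70% higher among all tested genes. Among tailbud genes that were not called 4.17% were lower and 4.45% higher. This comparison shares its WT 24h libraries with the one over time. The 11 genes included Hoxb9, Hoxb8, Hoxd9, Hoxa5, Sema6a, Sox2 and Ncam1. Hoxb9 held 20.2 and 11.5 CPM in WT and 3.47 and 0.669 CPM in Null cells at 24h (-2.84 ± 0.52, edgeR adjusted p = 4.4e-04), and Hoxd9 23 and 31.3 CPM against 5.45 and 1.34 CPM (-2.83 ± 0.42, 1.9e-05). Sema6a held 175 and 175 CPM against 118 and 124 CPM (-0.53 ± 0.13, edgeR adjusted p = 0.00654). At 0h Hoxb9 and Hoxd9 were at most 1.14 CPM in either cell type, and Sema6a measured 161 and 173 CPM in WT and 157 and 136 CPM in Null cells. Hoxa5 and Ncam1 already lay lower in the Null libraries at 0h. Hoxa5 held 53 and 40.4 CPM in WT against 29.1 and 22.6 CPM in Null cells, and Ncam1 109 and 80.8 CPM against 71.4 and 46.1 CPM. Sox2 overlapped at 0h, with 422 and 406 CPM in WT and 536 and 370 CPM in Null cells. T, Tbx6 and Grsf1, lower in Triple tailbuds, had log2 differences of 0.25, 0.39 and -0.05 between Null and WT EpiSCs, and none was called. The count of 11 fell to 5 with DESeq2 or without WT 24h replicate 1, and to 7 without Null 24h replicate 2.

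Of the 68 genes higher in Triple and tested in EpiSCs, 10 were higher and 10 lower in Null cells at 24h (14.7% each). The keratins were among those higher: Krt8 held 8.35 and 5.1 CPM in WT and 32.7 and 62.2 CPM in Null cells (2.68 ± 0.33, edgeR adjusted p = 1.9e-06), and Krt18 5.57 and 8.29 CPM against 32.2 and 35.4 CPM (2.34 ± 0.52, 0.0126). Before treatment, at 0h, Krt8 already stood at 14.5 and 9.68 CPM in WT and 21.5 and 37 CPM in Null cells, and Krt18 at 9.63 and 11.4 CPM against 5.69 and 35.2 CPM, so the Null libraries were above WT for Krt8 and straddled it for Krt18. Aldh1a2, Gata6 and Pcdh8 were also higher, at log2 differences of 1.00, 0.99 and 2.04. At 0h Pcdh8 held 7.49 and 5.12 CPM in WT and 32.2 and 20.8 CPM in Null cells, Aldh1a2 5.35 and 3.42 CPM against 7.58 and 31.6 CPM, and Gata6 8.03 and 12.5 CPM against 4.42 and 3.61 CPM. The difference between Null and WT cells was not tested at 0h. Pmp22, Id2, Myo6 and Soga3 were among the 10 lower in Null cells. Null libraries already lay below WT at 0h for Id2, Myo6 and Soga3. Id2 held 59.9 and 77.4 CPM in WT and 38.5 and 47 CPM in Null cells. Myo6 held 28.4 and 29 CPM against 15.8 and 15.4 CPM, and Soga3 79.7 and 63.8 CPM against 56.2 and 38.9 CPM. The counts became 5 higher with DESeq2 and 5 lower without Null 24h replicate 1.

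**Figure D5:**
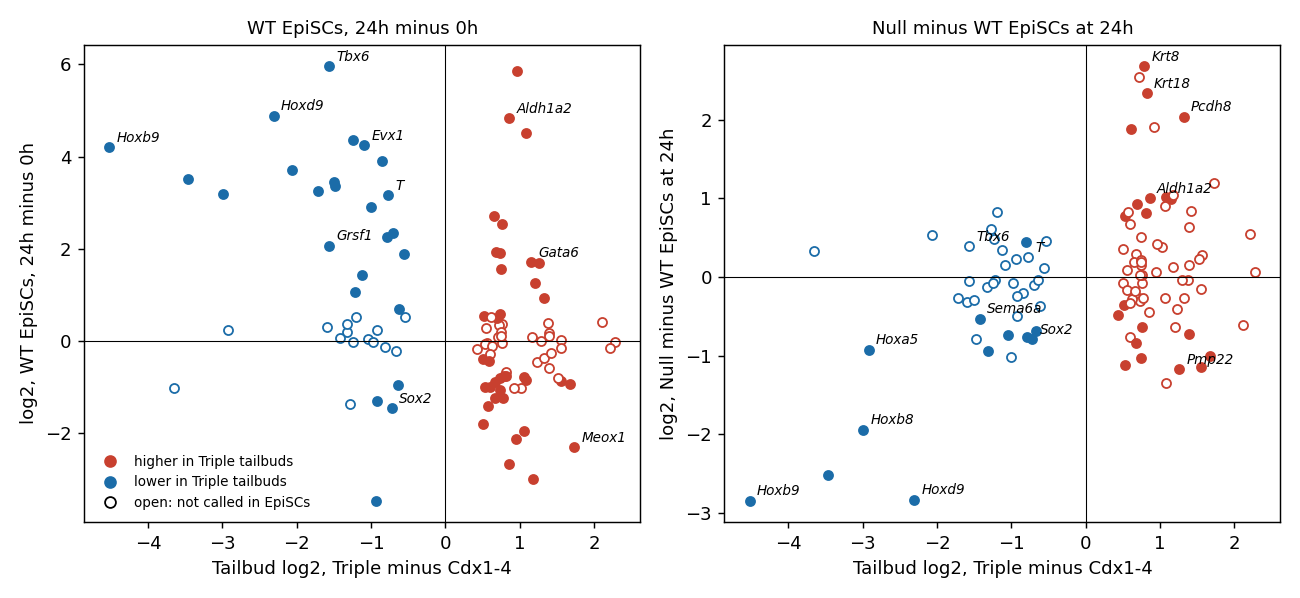
Genes called in tailbuds and tested in EpiSCs, with the tailbud log2 difference between Triple and Cdx1-4 on the horizontal axis. The vertical axis is the log2 difference of WT EpiSCs at 24h against 0h (left) and of Null against WT EpiSCs at 24h (right); filled points were called in EpiSCs, such as Hoxb9 at 4.21 on the left and -2.84 on the right.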

How the data were processed

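RNA was counted by CEL-seq from 10 ng of total RNA with 75 bp reads, per the labels' protocols. The authors deposited 1 table of counts per gene for the 9 tailbud libraries and 1 for the 8 EpiSC libraries, not normalized and mapped to mm10 per the submitters' processing notes; the aligner and counter are not given in the sources used here. Tailbud columns name a group, a colour and a number, and were taken as replicates of that group. The 8 spike-in entries of the tailbud table held 1 count in all and were left out.

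Each table was fitted alone with edgeR 4.0.16 in R 4.3.3 (filterByExpr, TMM, glmQLFit with robust estimation, glmQLFTest, 1 mean per group). This left 6003 and 9703 genes, with 6 and 4 residual degrees of freedom and common biological coefficients of variation of 0.0995 and 0.081. Calls have a Benjamini-Hochberg adjusted p below 0.05 over all tested genes of the table. Standard errors come from the F statistic, and CPM from TMM-scaled totals. The fit was tested on simulated data. Ratios of pooled counts carry exact 95% Poisson intervals, and a group at 0 is set to a floor of 3 counts; both cover counting error only. Matching by symbol to the GRCm38.p6 gene table placed 99.6% of the genes, and its coordinates are used.

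The members, the 37 lists of genes and the naming rule were chosen with earlier results of these data known, so counts within lists describe and do not test them. Named genes are Cdx1, Cdx2, Cdx4, T, Sox10, Hoxb9, Grsf1 and Sema6a, the 15 largest rises and 15 largest falls among called genes at 20 CPM or more in the higher group whose libraries did not overlap, and the called members of each list or, where fewer than 3 were called, the 3 with the smallest p. The rule leaves out predicted genes; genes named outside it, such as neighbours, scarce Hox genes and 2 transcripts of the HoxA run, were chosen after their values were seen. Alternatives were DESeq2 1.42.0, RLE size factors, other filters, the compared groups alone, thinned counts, leaving out each library, the colour and number of the column names, and, chosen after seeing the data, totals over all genes. The mm9 region lists of the series were not used here. Some genes are not reported here.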

Additional observations from a re-analysis of the deposited data

How the results depend on the processing

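The direction of the log2 difference was the same for all 121 called genes in every setting that gave a value, and 30 of them (17 higher, 13 lower) were called under all 16 alternatives. Each setting refits the same counts or a part of them, so the shared direction is no separate support. A gene without a value in any 1 setting is not among the 30, and the strict filter gave a value for 99 of the 121. With the replicate block (the colour and number of the column name), 118 genes were called between Triple and Cdx1-4, 110 of them shared. Same-named libraries of these groups deviated with correlations of 0.003, -0.099 and -0.037, and differently named ones with -0.129 to 0.162. With 3 libraries a group these values cannot decide whether the names pair the samples. The count of 121 became 69 with DESeq2 (42 higher, 27 lower) and 38 with the blue libraries alone (24 and 14), and 70 to 110 when 1 library was left out (40 to 65 higher, 30 to 45 lower). The 8 calls between Cdx1-4 and WT were 6 to 11 without 1 library. In EpiSCs the comparison of WT at 24h with 0h gave 1632 calls, 844 with DESeq2 and 1034 to 1584 without 1 library, and Null against WT at 24h gave 781, 289 with DESeq2, 499 after thinning and 357 to 796 without 1 library. Where that leaves 1 library in a group, it is assumed to vary like the others. Of the genes higher in Triple, those lower at 24h were 13 to 20 without 1 library, those higher in Null 5 with DESeq2, and those lower in Null 5 to 11 without 1 library. Of the genes lower in Triple, those lower in Null were 5 with DESeq2 and 5 to 13 without 1 library, and the single one higher in Null became 0 with DESeq2 or thinning, 2 with a stricter filter, 3 with the replicate block and 0 to 2 without 1 library. The causes were not tested. Depth limits the scarce genes: 6003 of 14602 could be tested in tailbuds.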
